A study of Mus musculus with 2 samples.

Results

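The barcodes of the preputial gland (PG) library with more than 10% of their unique molecular identifiers (UMIs) in the 13 genes of the mitochondrial genome were examined. They were selected by that share and by a minimum of 500 genes and 1000 UMIs, and numbered 662 of the 5361 PG barcodes that met both minimums, or 12.3% (exact 95% interval 11.5 to 13.3). The other 4699 PG barcodes, at or under 10%, and the 232 barcodes of the back skin library above 10% served for comparison, out of 14492 barcodes in the series. Both libraries came from the same 3 male wild type C57BL/6 mice aged 52 weeks, with no treatment named. Whole PGs and back skin biopsies were pooled over the mice, dissociated with an enzyme kit and sequenced as 1 droplet library for each tissue. The deposited PG matrix held 26288071 UMIs in 309839 barcodes and the skin matrix 37675226 UMIs in 571670. No kept barcode occurred in both libraries. Because each tissue is a single pool, the spread over mice is unknown and no test was made. Exact 95% intervals are given, which reflect counting error alone. The study names a single kit for its libraries. The lists of barcodes against which the libraries were read nevertheless differed in length, 737280 for PG and 6794880 for skin with 77142 in common. Whether the chemistry differed is not known, and chemistry, library and tissue cannot be told apart.

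The PG of male rodents is built like a large sebaceous gland. Its sebocytes (SEB) arise from basal cells that express keratins, fill with lipid droplets and end in holocrine secretion, in which the whole cell breaks down, its nucleus and organelles are degraded and its content becomes the secretion. In droplet data a high mitochondrial share is often used to remove damaged cells, since RNA enclosed in mitochondria stays while RNA of the cytosol is lost, but cells rich in mitochondria carry a high share too. The study also left out barcodes with a high mitochondrial share, and the question followed here is which cells such a limit removes from PG.

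The 662 barcodes spread over a wide range. Their median mitochondrial share was 19.2%, with 5th and 95th percentiles of 10.4 and 50.5% and a maximum of 72.9%. Between 10 and 20% lay 354 barcodes, between 20 and 30% 136, between 30 and 50% 137, and above 50% 35. There was no gap at the limit, as 68 barcodes lay between 9 and 10% and 69 between 10 and 11%. The nearest barcodes on either side were at 9.99% and 10.01%. In skin the barcodes above the limit stayed closer to it. Their median was 12.2% and their maximum 41.4%, and 212 of the 232 lay under 20%. The share of barcodes above the limit was 12.3% in PG and 2.54% (2.23 to 2.88) in skin, a log2 ratio of 2.28 (2.06 to 2.50). The ratio depended on the limits, from 1.22 with a mitochondrial limit of 5% to 4.71 with 20%, and from 1.52 with at least 200 genes and 500 UMIs to 3.83 with at least 1000 genes and 2000 UMIs.

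Both parts of the share moved. The median barcode above the limit held 471.5 mitochondrial UMIs, compared with 87 at or under it, and 1501.5 UMIs of other genes, compared with 2647. It had 828 genes and 2133.5 UMIs in all, compared with 1141 genes and 2729 UMIs. Pooled over barcodes, mitochondrial genes made up 23.1% of the UMIs above the limit and 3.34% at or under it. These are the values that selected the barcodes and are given as a description. Because the mitochondrial share enters every percentage, the levels below are CPM, a gene's UMIs scaled to a common total, over the UMIs outside the mitochondrial genome unless another scale is named.

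The 13 mitochondrial genes encode subunits of the respiratory chain and of ATP synthase, and all were higher above the limit as a share of all UMIs, by 2.28 (mt-Nd6) to 3.08 (mt-Co2) on the log2 scale, as the selection fixes. Their composition, which the selection did not fix gene by gene, changed little. mt-Co1 and mt-Co2, subunits of cytochrome c oxidase, made up 22.3% and 21.3% of the mitochondrial UMIs above the limit and 24.8% and 17.5% at or under it. mt-Co3, another subunit of that enzyme, made up 14.7% and 15.9%. mt-Atp6, a subunit of ATP synthase, was at 12.9% and 12.5%, and mt-Cytb, cytochrome b of complex III, at 11.7% and 12.0%. Within the mitochondrial UMIs the 13 log2 ratios ran from -0.51 (mt-Nd6) to 0.29 (mt-Co2). The skin barcodes above the limit had another composition, with mt-Atp6 at 22.3%, mt-Co1 at 14.5% and mt-Atp8 at 0.225% instead of 2.60%. The skin barcodes at or under the limit had mt-Atp6 at 21.1% and mt-Atp8 at 0.253%, so this contrast separated the libraries on both sides of the limit.

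**Figure D1:**
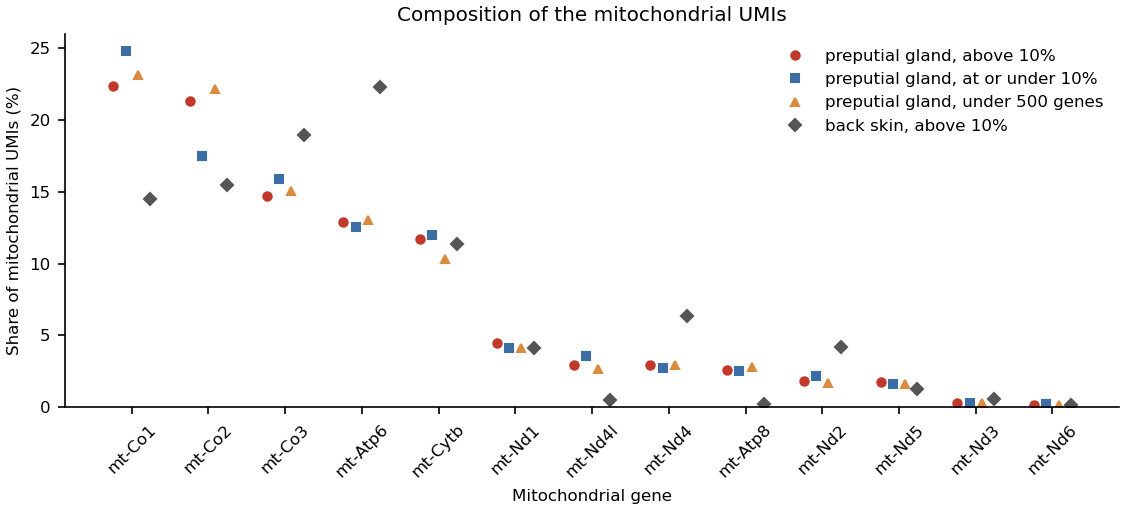
Share of the mitochondrial UMIs (%) taken by each of the 13 mitochondrial genes in 4 pools of barcodes: PG above 10% (circles), PG at or under 10% (squares), PG with under 500 genes (triangles) and back skin above 10% (diamonds). The 3 PG pools lie close together for each gene, and the skin pool departs from them at mt-Atp6, mt-Co1, mt-Nd4, mt-Nd4l and mt-Atp8, among others.

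All PG barcodes were clustered together without the mitochondrial genes, and clusters were named from marker genes. The barcodes above the limit were found in each of the 25 clusters. Of the 662, 206 (31.1%) fell in keratinocyte-like clusters, 163 (24.6%, 21.4 to 28.1) in SEB-like clusters, 70 (10.6%) in fibroblast-like, 42 (6.34%) in immune-like, 12 (1.81%) in smooth muscle-like and 8 (1.21%) in endothelial-like clusters, and 161 (24.3%) in clusters left unnamed. Some unnamed clusters also held at least 3 keratinocyte markers. They were led by Tagln (67 barcodes above the limit), Ube2c (17) and Hbegf (7), so the keratinocyte-like count depends on the naming. The SEB-like count does too. All genes of the early SEB list of basal cells are also keratinocyte markers, so the names cannot separate basal SEB from keratinocytes. The largest keratinocyte-like cluster (101 above the limit) was named from Krt15, Col17a1 and Itga6. An unnamed cluster led by Cyp2f2 (28 above the limit) held the SEB marker Pparg. Among the 4699 barcodes at or under the limit the SEB-like share was 10.6% (9.77 to 11.6) and the keratinocyte-like share 38.1%. SEB-like barcodes were thus the class most over-represented after the small smooth muscle-like class, and 163 of their 663 barcodes (24.6%, 21.4 to 28.0) lay above the limit. Outside the SEB-like clusters 499 of 4698 barcodes did (10.6%, 9.75 to 11.5). The SEB-like share grew with the mitochondrial share, from 9.27% of the barcodes up to 2% mitochondrial UMIs and 9.44% from 2 to 5% to 15.9% from 5 to 10%, 21.2% from 10 to 20%, 28.7% from 20 to 30% and 28.5% (49 of 172 barcodes, 21.9 to 35.9) above 30%. Leaving the SEB markers and the lipid, nuclear, respiratory chain and ribosomal gene lists described below out of the clustering gave an SEB-like share of 24.3% among the 662. With barcodes kept from 200 genes and 500 UMIs the SEB-like share above the limit was 12.0%, and with at least 1000 genes and 2000 UMIs it was 33.8%. The share at or under the limit was not worked out at these settings, so over-representation there is not known. The classes differed in depth, with medians of 5123 UMIs in SEB-like, 2783 in keratinocyte-like and 1411 in fibroblast-like barcodes. The part of depth and of the minimums in the SEB-like share was not tested.

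The SEB-like clusters differed among themselves. Clusters are named here by their leading genes, which the clustering itself selected. In the cluster led by Hmgcs1, Idi1 and Soat1, 63 of 116 barcodes (54.3%, 44.8 to 63.6) lay above the limit, the highest share of all clusters. In the cluster led by Idi1 and Olah it was 63 of 240 (26.2%, 20.8 to 32.3) and in the one led by Awat2 and Idi2 11 of 37 (29.7%, 15.9 to 47.0). In the fourth, led by Cidea and Spink8, it was 26 of 270 (9.63%, 6.39 to 13.8), below the 12.3% of the whole library. The next highest shares outside the SEB-like class were those of the smooth muscle-like cluster (12 of 45, 26.7%, 14.6 to 41.9), a keratinocyte-like cluster led by Defb6 and Defb1 (38 of 177, 21.5%, 15.7 to 28.3) and an immune-like cluster led by the immunoglobulin genes Igkc and Jchain (16 of 84, 19.0%, 11.3 to 29.1). That immune-like cluster also had the T cell genes Cd3g, Cd3d and Cd3e among its leading genes. The largest keratinocyte-like cluster, led by Nrg2 and Aldh3a1, had 101 of 1227 (8.23%, 6.75 to 9.91).

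**Figure D2:**
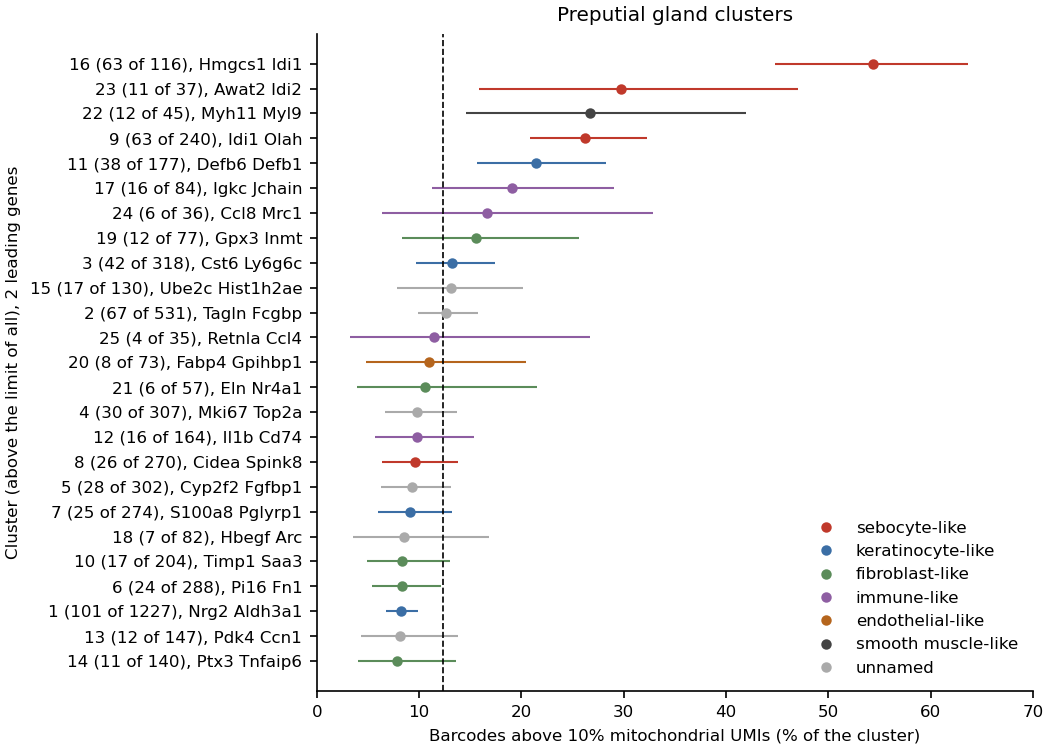
Percentage of barcodes above the 10% mitochondrial limit in each of the 25 PG clusters, with exact 95% intervals as bars, coloured by class. Each row gives the cluster, its barcodes above the limit of all its barcodes, and its 2 leading genes. The dashed line is the whole library (12.3%). 3 of the 4 SEB-like clusters lie at 26.2% or higher and the Cidea-led one at 9.63%.

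Clustering the 662 barcodes on their own gave 9 groups, and those given a name were SEB-like, keratinocyte-like, fibroblast-like or immune-like. The SEB-like groups held 124 barcodes led by Soat1, Awat2 and Agps, with a median mitochondrial share of 22.1%, and 47 led by Map7d2, Amacr and Cidea, with a median of 17.7%. All 124 of the former and 37 of the latter were in the SEB-like clusters of the whole library. The others were 145 and 62 keratinocyte-like, 71 fibroblast-like and 42 immune-like barcodes, and 134, 20 and 17 that stayed unnamed, with smooth muscle and endothelial genes together leading the 20. The 17 held the keratinocyte markers Col17a1, Itga6 and Trp63 but were not named. They had the highest Malat1 level of all 9 groups, 20306 CPM, and a median mitochondrial share of 27.9%. Doublets were not removed for the values given here. Doublet scoring would remove 47 (7.10%) of the 662 and 183 (3.89%) of the others, with 4 of the 163 SEB-like barcodes above the limit among them.

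Most SEB markers differed little in level between both sides of the limit. Dbi, an acyl-CoA binding protein, was at 10016 CPM above and 9558 at or under it, a log2 ratio of 0.07 (0.04 to 0.09). Awat2, an acyltransferase that makes wax esters, was at 255 and 203 (0.33, 0.16 to 0.49), but 1 barcode held 24.9% of its UMIs above the limit, and without it the level was 193 CPM. Cidea, a lipid droplet protein, was at 160 and 186 (-0.22, -0.43 to -0.02). Plin2, which coats lipid droplets, was at 600 and 489 (0.29, 0.19 to 0.40). Elovl3, an elongase of very long fatty acids, was almost absent from PG with 5 UMIs above and 25 at or under the limit, near 0 on both sides. Of the 12 genes of the SEB list 10 had a mean of at least 20 CPM and were compared, and 2 were over 2-fold higher with an interval that leaves out a ratio of 1. These were Soat1, which esterifies cholesterol, with 494 against 85.9 CPM (2.52, 2.39 to 2.66), and Scd1, the desaturase that makes oleic acid, with 3246 against 1125 (1.53, 1.48 to 1.58). Fasn, fatty acid synthase, was at 258 and 140 (0.88, 0.71 to 1.05). The list's median was 0.32 and that of its 4 compared late members 0.31, beside a median of 0.20 over all 6053 genes compared, of which 226 (3.73%) were over 2-fold higher and 10 (0.165%) over 2-fold lower. With CPM over all UMIs, mitochondrial ones included, the median of the SEB list was -0.0067, and Dbi, Awat2 and Plin2 were at -0.26, -0.0047 and -0.036 on the log2 scale.

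Free RNA in the suspension contributes to all barcodes. In PG barcodes of 5 to 50 UMIs, taken as free RNA, Dbi was at 11022 CPM, Scd1 at 3929, Soat1 at 542 and Awat2 at 367. To set detection against it, each barcode was thinned to 500 UMIs outside the mitochondrial genome, which left out none. Soat1 was then detected in 12.7% of the barcodes above and 2.21% of those at or under the limit, Scd1 in 34.6 and 17.7%, Awat2 in 4.23 and 1.45%, and Cidea in 4.98 and 5.66%. Without thinning the shares were 20.7 and 8.07%, 54.2 and 43.7%, 9.52 and 4.55%, and 16.8 and 20.7%. Immune-like and endothelial-like barcodes, in which SEB genes are taken as background, numbered 50 above and 342 at or under the limit and held medians of 1259 and 1780.5 UMIs before thinning. Awat2 was detected there in 2.0% (0.0506 to 10.6) and 0% after thinning (0 of 342, where 3 counts would be 0.877%), Cidea in 2.0% (0.0506 to 10.6) and 2.34%, and Scd1 in 32.0% (19.5 to 46.7) and 8.19%. Soat1 was detected in 4.0% (0.488 to 13.7) and 4.39%, the latter over the 2.21% of all barcodes at or under the limit, so these classes are no background for it. For Awat2, Cidea and Scd1 the intervals above the limit cover the shares over all 662, so no difference from background was detectable with 50 barcodes. For Dbi and Mgst1, a glutathione transferase, they did not, with 50% (35.5 to 64.5) beside 74.2% over the 662 and 24.0% (13.1 to 38.2) beside 47.0%. In the SEB-like barcodes above the limit, whose clusters these genes helped to define, Scd1 was detected in 91.4% (86.0 to 95.2), Soat1 in 47.2% (39.4 to 55.2) and Awat2 in 13.5% (8.66 to 19.7).

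Keratinocyte and immune markers had no member past 2-fold between both sides of the limit, and stroma markers had 3. Of the 16 keratinocyte markers 14 were compared and none was past 2-fold, with a median of -0.11. Krt5 and Krt14, the keratins of basal cells, were at 744 and 1644 CPM above the limit and 744 and 1851 at or under it. The suprabasal members had a median of -0.50 over 6 genes, of which 2 were slightly higher, Krt6a (330 against 309 CPM) and Krt79 (620 against 541), and 4 lower, among them Dmkn with 543 against 892 CPM (-0.71, -0.83 to -0.61), Sbsn with 141 against 224 and Krtdap with 900 against 1322. Of the 8 fibroblast markers none was past 2-fold (median -0.15), and Dcn, the matrix proteoglycan decorin, was at 1067 and 1246 CPM. Of the immune markers 8 of 12 were compared and none was past 2-fold (median 0.05), and Cd74, the invariant chain of MHC class II, was at 913 and 958 CPM. The 22 stroma markers included 3 of 13 compared that were past 2-fold higher (median 0.10), beside 3.73% of all genes. They were the smooth muscle and pericyte genes Rgs5 (46.1 against 23.0 CPM) and Myl9 (64.3 against 25.9), and Flt1 (85.5 against 37.3), which encodes a receptor of vascular endothelial growth factor. Single barcodes held 18.0% of the Rgs5 and 28.2% of the Myl9 UMIs, and without them the levels were 37.9 and 46.2 CPM, neither of them past 2-fold. Flt1 was held by 63 barcodes above the limit, where 8 were endothelial-like, and was also a detected marker of 2 keratinocyte-like clusters. It was at -0.16 on the log2 scale with at least 1000 genes and 2000 UMIs, and Rgs5 at -0.015 with a limit of 20%. The medians of the stroma and immune lists turned with the settings, to -0.23 and -0.28 with CPM over all UMIs and -0.44 and -0.64 with a limit of 5%, and the immune median was 0.73 with a limit of 20%. Pecam1, another endothelial marker, was at 4.54 and 7.18 CPM.

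**Figure D3:**
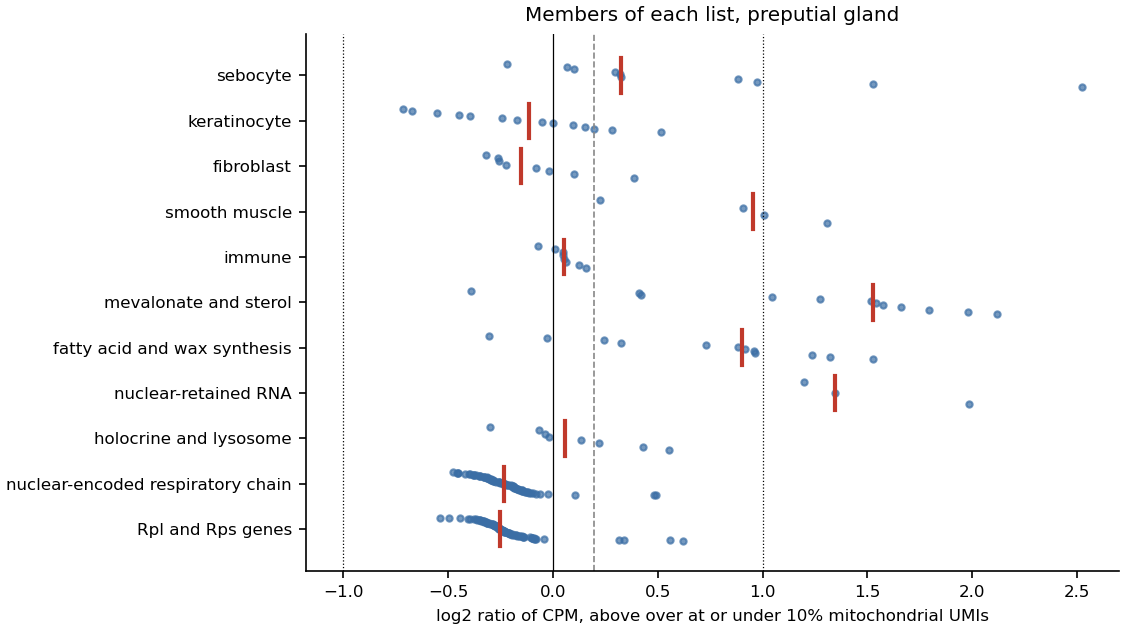
Log2 ratio of CPM, PG barcodes above over those at or under the 10% limit, for each compared member (points) of 11 gene lists, with the list's median in red. The dashed grey line is the median of all 6053 compared genes (0.20) and dotted lines mark 2-fold. The sterol list and the nuclear-retained RNAs lie to the right, and the respiratory chain and ribosomal protein genes almost all lie to the left of 0.

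Enzymes of sterol synthesis had the highest median of the lists with more than 1 gene compared. The mevalonate pathway builds isoprenoid units from acetyl-CoA and leads on to cholesterol. Of its 14 genes listed, 12 were compared and 9 were over 2-fold higher above the limit, none lower, with a median log2 ratio of 1.53. Of all genes compared, 3.73% were over 2-fold higher and 0.165% over 2-fold lower, with a median of 0.20. Summed over the list, the level was 13383 CPM above and 4101 at or under the limit. Hmgcs1, the synthase that opens the pathway, was at 2332 and 538 CPM (2.12, 2.06 to 2.18). Idi1, which isomerises isopentenyl diphosphate, was at 7444 and 2355 (1.66, 1.63 to 1.69). Mvk, Mvd, Sqle, Lss and Cyp51 were higher by 1.05 to 1.57. Fdft1, squalene synthase, was at 23.5 and 30.8 CPM (-0.39, -0.97 to 0.13), Fdps at 260 and 196, and Pmvk at 49.2 and 36.8, none of them past 2-fold. Free RNA held Idi1 at 14914 CPM and Hmgcs1 at 2696, above the level of the 662.

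The RefSeq promoter table for GRCm38.p6 held 9 of the 14 sterol genes. In the 250 bases before their starts, the letters TCACNCCAC, a form of the element bound by sterol regulatory element-binding proteins, were found on either strand of 1 of them, Hmgcs1, and of 1.22% of all 27025 genes in the table. The letters ATTGG, a reversed CCAAT box, were found on either strand in 9 of 9 and in 37.5% of all genes. The match of Hmgcs1, which leads the cluster with the highest share above the limit, lies 137 bases before its start on the plus strand in chr13:119690184-119690252. It is shown, as the only match among these promoters, with the matched letters in capitals.
Hmgcs1: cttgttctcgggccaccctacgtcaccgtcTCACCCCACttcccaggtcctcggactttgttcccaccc

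Fatty acid and wax enzymes followed in part. Of 18 genes 12 were compared, 3 were past 2-fold higher (Scd1, Fads1 and Fads2) and none lower, with a median of 0.90. Over all genes compared these were 3.73% higher, 0.165% lower and a median of 0.20. The desaturases Fads1 and Fads2 were at 69.6 and 475 CPM above and 27.8 and 202 at or under the limit. Far1, a reductase that makes fatty alcohols, was at 226 and 116, Dgat2, which makes triglycerides, at 45.4 and 23.4, and Acly, which supplies acetyl-CoA, at 194 and 103, each with an interval above 0. A single barcode held 22.7% of the Far1 UMIs above the limit, and without it the level was 175 CPM. Among all genes at 50 CPM or more, the 10 largest ratios included those of Soat1, Ly75, Agps, Hmgcs1, Fa2h, Neat1, Gk5 and Mc5r. Agps, which makes ether lipids, was at 1565 and 358 CPM, Fa2h, a fatty acid hydroxylase, at 155 and 38.8, and Mc5r, the melanocortin receptor of sebaceous and preputial glands, at 76.4 and 20.5. The 10 smallest were Cst6, Slpi, Sprr1a, Eif6, Pdzk1ip1, Ppic, Dmkn, Gpx2, Bex3 and Nudc. Only Cst6, a protease inhibitor of cornifying cells, was past 2-fold lower among them, at 4486 against 9365 CPM (-1.06, -1.10 to -1.02). Sprr1a, a precursor of the cornified envelope, was at 433 and 762.

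RNAs kept in the nucleus were higher, and most Rpl, Rps and respiratory chain genes slightly lower. Malat1 and Neat1, long noncoding RNAs of nuclear speckles and paraspeckles, were at 4111 against 1793 CPM (1.20, 1.15 to 1.24) and 980 against 248 (1.98, 1.89 to 2.07). Kcnq1ot1, a noncoding RNA held at its own chromosomal domain, was at 117 against 45.8 (1.35, 1.08 to 1.60). Free RNA held Malat1 at 1437 and Neat1 at 86.8 CPM, below both groups of barcodes. Genes with symbols in Rpl and Rps, which nearly all encode proteins of the cytosolic ribosome, summed to 260310 CPM above and 311454 at or under the limit, and 84 of the 88 compared were lower, none of them past 2-fold (median -0.25). Nuclear genes of the respiratory chain, whose proteins work beside the mitochondrially encoded subunits, summed to 39480 and 46668 CPM. None of the 78 compared was past 2-fold, 3 were higher and the median was -0.23. So the mitochondrially encoded subunits were higher by selection while the nuclear-encoded ones were slightly lower. The thinned barcodes, at 500 UMIs each, held a median of 347 genes above and 333 at or under the limit.

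Most clusters showed these differences too. Of the 20 clusters with at least 10 barcodes above the limit, Malat1 was higher above it in 20 (the interval lay above 0 in 19), Neat1 in 19 (16), Scd1 in 18 (12), the summed sterol list in 17 (15) and Idi1 in 16 (14). An interval below 0 occurred for the sterol list in 1 fibroblast-like cluster (-0.60, -1.18 to -0.063) and for Idi1 in the smooth muscle-like one (-1.07, -2.25 to -0.082). The summed Rpl and Rps genes were higher in 1 of 20, with 18 intervals below 0, and the summed respiratory chain genes in 1, with 16 below 0. Dbi was higher in 7, with 4 intervals above and 10 below 0. In immune-like and endothelial-like barcodes together, Idi1 was at 1627 CPM above and 709 at or under the limit (1.20, 0.91 to 1.48), Scd1 at 631 and 251, and Hmgcs1 at 404 and 167. Dbi, another SEB gene, was at 2686 and 2422 there (0.15, -0.06 to 0.35), and Krt14 at 290 and 446. Free RNA held Dbi at 11022 CPM, less than the 14914 CPM of Idi1. The part of free RNA in the sterol genes of these classes was not tested.

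The SEB-like barcodes carry the question of holocrine SEB, and the 163 above the limit were set beside the 500 at or under it. They held 619 mitochondrial UMIs in the median compared with 183, and 1771 other UMIs compared with 5718.5, so the groups differed in depth. Of 5532 genes compared, 901 (16.3%) were over 2-fold higher and 75 (1.36%) over 2-fold lower, with a median of 0.33. The groups were made up of different clusters, with 26 of the 163 and 244 of the 500 in the Cidea-led one. The late SEB list held members on both sides of 0. Its 4 compared members had a median of -0.12, with Awat2 at 792 against 1004 CPM (-0.34, -0.51 to -0.17), Cidea at 406 against 630 (-0.63, -0.87 to -0.40), Plin2 at 1287 against 1192 (0.11, -0.03 to 0.24) and Soat1 at 1542 against 369 (2.06, 1.92 to 2.21). Dbi was at 22106 against 27288 (-0.30, -0.34 to -0.27). Awat2 was concentrated in the Awat2-led cluster. By cluster, the interval lay below 0 in the Awat2-led and the Hmgcs1-led one (391 against 620 CPM, -0.67, -1.10 to -0.25), above 0 in the Cidea-led one (86.3 against 11.5, 2.91, 1.36 to 4.31) and on both sides of 0 in the Idi1-led one (68.9 against 40.7, 0.76, -0.46 to 1.82). A single barcode of the Awat2-led cluster held 84 of the 314 Awat2 UMIs above the limit, and without it the level in SEB-like barcodes was 593 CPM. With the limit set at 5% the median of the late list was 1.57, and with 20% it was -0.52. Of the sterol list 8 of 12 were past 2-fold higher (median 1.12), Hmgcs1 at 7000 against 2075 CPM and Idi1 at 22454 against 10504 among them. Of the early list of basal cells 3 of 5 were past 2-fold higher from low levels. They were Trp63, the transcription factor of basal epithelium (202 against 80.0 CPM), Itga6 (121 against 56.7) and Krt15 (60.6 against 27.8). Krt14 and Krt5 were not.

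All 3 nuclear RNAs were past 2-fold higher within SEB-like barcodes, with Neat1 first and Kcnq1ot1 last among the 10 largest ratios. Neat1 was at 1850 against 306 CPM (2.60, 2.45 to 2.74), Malat1 at 4093 against 1129 (1.86, 1.77 to 1.94) and Kcnq1ot1 at 184 against 43.8. Between Neat1 and Kcnq1ot1 stood Mast2, Slc25a36, Pbx3, Maml3, Zbtb20, Kdm7a, Stx16 and Abhd2, each at 50.5 to 126 CPM above the limit and 9.04 to 29.9 at or under it. Pbx3, Maml3 and Zbtb20 encode nuclear regulators of transcription and Kdm7a a histone demethylase. The lowest ratios were those of Nit2, Ppic, Prdx3, Mrpl16, Ass1, Nudc, Lsm8, Polr2i, Hsd3b7 and Anp32a, which each held 5 to 21 UMIs in the 163 barcodes. Prdx3, a peroxidase of mitochondria, and Mrpl16, a protein of the mitochondrial ribosome, are both encoded in the nucleus. The respiratory chain list had a median of -0.45, and none of its 79 compared genes was past 2-fold. The Rpl and Rps genes took 21.0% above and 29.4% at or under the limit (median -0.49), and the 2 past 2-fold higher, Rps6ka3 and Rps6kb1, are kinases and not ribosomal proteins.

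Genes tied to the breakdown of cells had no member past 2-fold in the 163. Of 11 genes for lysosomal enzymes and nucleases, chosen for their link to holocrine secretion, 6 were compared (median 0.26). Over all 662 barcodes 8 were compared and none was past 2-fold (median 0.06). The same held for autophagy (7 compared, median -0.02), mitophagy (5, -0.33), cell death genes (4, 0.10), stress genes (5, 0.21) and immediate early genes (10, 0.32) within SEB-like barcodes, and over all 662 these 5 lists had medians of -0.02, -0.05, -0.04, 0.19 and 0.07 with no member past 2-fold. Mitochondrial fatty acid oxidation had 1 of 9 compared past 2-fold, beside 16.3% of all genes, namely Cpt1a, which admits fatty acids to mitochondria, at 93.4 against 44.9 CPM in SEB-like barcodes. The genes of mitochondrial transcription had a median of 0.43 over 6 and 0.33 over 5 of all barcodes, none past 2-fold. Keratinocyte markers summed to 3475 CPM in the SEB-like barcodes above the limit and 3563 at or under it, beside 7467 over all 662. Within the list the 3 basal genes named above were past 2-fold higher and Krtdap past 2-fold lower (2.52 against 85.6 CPM, 1 UMI above the limit), and the 3 suprabasal genes compared had a median of -0.96. Stroma and immune markers were at lower levels. The fibroblast list summed to 70.7 CPM, the immune list to 35.3 and the smooth muscle list to 7.57, compared with 42.8, 40.7 and 5.91 at or under it. The endothelial list summed to 40.4 compared with 2.43 CPM, and Fabp4 of adipocytes and capillaries had 30 UMIs, 29 of them in 3 barcodes.

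The mitochondrial share was then divided more finely within SEB-like barcodes. Soat1 was higher in each successive range, from 69.0 CPM up to 2%, 198 from 2 to 5%, 927 from 5 to 10%, 1171 from 10 to 20% and 1240 from 20 to 30% to 3505 above 30%. Hmgcs1 went from 1014 to 1708, 3586, 5929, 5943 and 12956 CPM, and Malat1 from 840 to 1097, 1409, 2651, 3784 and 10382. Awat2 had another course. It was at 29.3 CPM up to 2%, 371 from 2 to 5% and 2968 from 5 to 10%, and then at 1047, 342 and 465 above the limit, with 726 in place of 1047 when the barcode named above was left out. Dbi likewise was highest from 5 to 10%, at 34154 CPM, and lowest above 30%, at 10166. Awat2 and Dbi were thus highest below the limit over the class as a whole, and Soat1, Hmgcs1 and Malat1 above it. The ranges differ in their clusters, and the Awat2-led cluster, whose barcodes at or under the limit had a median mitochondrial share of 7.47%, held most of the Awat2. The Rpl and Rps genes took 33.4, 31.1, 23.3, 22.1, 22.5 and 14.2% of the UMIs over the same ranges. Above 30% the 49 barcodes held a median of 1150 UMIs outside the mitochondrial genome, compared with 5149 for the 143 barcodes from 5 to 10%. The courses at highest share therefore rest on shallow barcodes, and the part of depth in them was not tested. In the other clusters Soat1 was at 20.9 CPM up to 2%, 23.6 from 10 to 20% and 86.2 above 30%, and Awat2 at 6.43, 16.3 and 51.7, so both were highest above 30% at far lower levels, with 15 and 9 UMIs there.

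**Figure D4:**
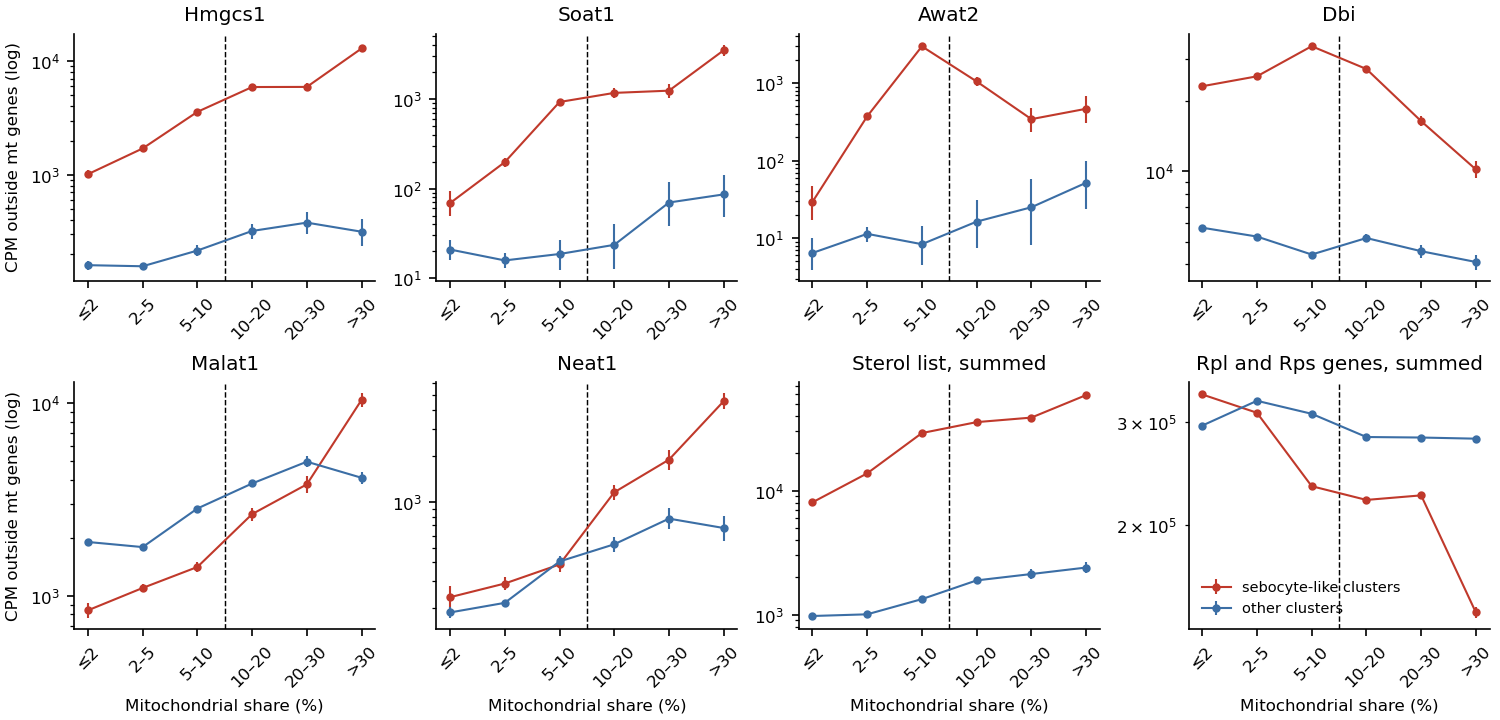
Levels (CPM outside the mitochondrial genes, log scale, with exact 95% intervals) of 6 genes and 2 summed lists in PG barcodes by their mitochondrial share, for SEB-like clusters (red) and all others (blue). The dashed line is the 10% limit. In SEB-like barcodes Hmgcs1, Soat1, Malat1 and Neat1 are highest above 30%, Awat2 and Dbi are highest from 5 to 10%, and the Rpl and Rps genes are lowest above 30%.

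The individual SEB-like clusters differed in these courses. In the Hmgcs1-led cluster the barcodes above the limit held Hmgcs1 at 12533 CPM compared with 4722, Soat1 at 2344 compared with 720, Neat1 at 2344 compared with 305 and Dbi at 21078 compared with 39896, and its 63 barcodes had a median of 1771 other UMIs compared with 8092. In the Awat2-led cluster the 11 barcodes above the limit held Awat2 at 6630 CPM compared with 12795 and Dbi at 37047 compared with 45846, while Soat1 was at 4862 compared with 2899. These 11 barcodes held the highest Awat2 level of all barcodes above the limit by cluster and had a median mitochondrial share of 13.1%. In the Cidea-led cluster Hmgcs1 was at 937 compared with 715 CPM and Idi1 at 2825 compared with 2452, with Neat1 at 715 compared with 250. In the Awat2-led cluster Awat2 was lower by -0.95 (-1.15 to -0.76) and Neat1 higher by 2.63 (1.95 to 3.31) on the log2 scale. No gene of the lists marks the last holocrine stage by itself, and whether barcodes of that stage lie among the 163 could not be told from these levels.

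Skin gave a different set of cells above the limit. Of its 232 barcodes 79 (34.1%) were hair follicle (HF) matrix-like, 58 keratinocyte-like, 14 (6.03%) melanocyte-like, 11 (4.74%) SEB-like and 59 (25.4%) unnamed. SEB-like barcodes had a high share above the limit in this library too, with 11 of 67 (16.4%, 8.49 to 27.5) beside 2.54% of the library, and only the melanocyte-like cluster had a higher one (14 of 50, 28.0%, 16.2 to 42.5). No skeletal muscle-like barcode lay above it (0 of 74, where 3 counts would be 4.05%), and the fibroblast-like and immune-like shares were 0.631% and 0.855%, compared with 9.14% and 13.2% in PG. The median skin barcode above the limit had 1337.5 UMIs, fewer than the 2133.5 of PG.

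Of 7031 genes compared between the barcodes above the limit, 868 (12.3%) were over 2-fold higher in PG and 1512 (21.5%) over 2-fold higher in skin, with a median of -0.27. Awat2 had no UMI in skin, so its 255 CPM in PG were at least 26.6-fold higher, with 3 counts in the skin pool as the floor. Dbi (10016 against 1062 CPM), Plin2 (600 against 38.3), Mgst1 (3061 against 262), Scd1 (3246 against 807) and Soat1 (494 against 201) were past 2-fold higher in PG. Elovl3 (3.78 against 54.2), Acsbg1 (28.7 against 102) and Far2, which had no UMI in the 662 and 54.2 CPM in skin, were past 2-fold lower. The Awat2 level of the 662 lay below the 367 CPM of the free RNA of PG. The keratinocyte list had 8 of 16 past 2-fold lower in PG, such as Krt10 (20.4 against 6166) and Krt1 (15.9 against 2542), both of the epidermis, and 1 higher, Krt6a. All 4 melanocyte and all 8 HF matrix genes were past 2-fold lower, and 7 of the 8 HF matrix genes had no UMI in the 662. The immune list had 8 of 9 past 2-fold higher in PG, Cd74 at 913 against 31.9 CPM among them, and 1 lower. That was the T cell receptor gene Trbc2 (6.05 against 41.5). In skin Trbc2 was also a detected marker of keratinocyte-like clusters, such as the one led by Krt77. Only 3 skin barcodes above the limit were immune-like. The stroma list had 9 of 12 past 2-fold higher in PG, with Dcn at 1067 against 297. Of the sterol list 4 of 14 were past 2-fold higher, Hmgcs1 and Idi1 among them, and 4 lower, with Idi1 at 7444 against 220 CPM. Malat1 was at 4111 in PG and 43049 in skin.

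The 10 genes placed at the PG end included Olah, AA467197, Tgm2, Slpi, Mia, Ntrk3, Aifm2, Acot5 and Dact2, all without a UMI in the skin pool. Their ratios are lower bounds, so they cannot be ranked against genes measured in both pools. Olah, a thioesterase that releases medium-chain fatty acids, was at 430 CPM and at least 44.9-fold higher, and Slpi, an inhibitor of proteases, at 295 CPM and at least 30.8-fold higher. The 10 at the skin end were Acer1, Hoxc13, Krt78, Krt77, Krt71, Dct, Krt35, Krt25, Rassf9 and Tmprss4, all without a UMI in the 662 PG barcodes. Their ratios are bounds too and give no rank. Krt77 and Krt78 are keratins of epidermis, Krt71, Krt35, Krt25 and Hoxc13 belong to hair, and Dct to melanocytes. Side by side with the skin barcodes at or under the limit, the 232 had Soat1 at 201 against 29.2 CPM, Scd1 at 807 against 103, Neat1 at 2514 against 979 and Malat1 at 43049 against 24550. The Rpl and Rps genes summed to 155440 against 276648 CPM and the respiratory chain genes to 19250 against 28385. The direction of each of these values across the limit was the one seen in PG, but other lists differed in direction. The suprabasal keratinocyte list summed to 14622 against 13092 CPM in skin and to 2583 against 3347 in PG. The stroma list summed to 724 against 3093 CPM in skin and to 2435 against 2399 in PG. SEB-like barcodes made up 4.74% of the skin barcodes above the limit and 0.629% of those at or under it.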

How the data were processed

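Single-cell suspensions of PG and back skin were sequenced as 3′ droplet libraries, 1 pool per tissue. The values are whole-number UMI counts per gene and barcode, made by the authors with Cell Ranger 4 on mm10 (submitters' processing notes) and deposited unfiltered. Barcodes with at least 500 genes and 1000 UMIs were kept. Counts outside the 13 mitochondrial genes were scaled to CPM, and each library was clustered without those genes (2000 variable genes, 30 components, 15 neighbours, Leiden resolution 1.0). A cluster needed at least 3 detected markers of a class (10% of barcodes, 2-fold over the rest) to be named. Not every cluster that met this was named. The PG cluster led by Ube2c, with 3 keratinocyte markers, and the skin cluster led by Lce1m, with 5, stayed unnamed. The naming rule was set after the clusters were seen, so the classes may differ from the study's. Doublets were removed only as an alternative. Ratios of pooled counts have exact binomial 95% intervals. A gene was compared at a mean of 20 CPM and counted as past 2-fold when its interval also left out 1. Reads are pooled over barcodes, which are not replicates. Genes named by size were the 10 at each end among those with at least 50 CPM and UMIs in 10% of barcodes of either group, leaving out mitochondrial, ribosomal and unnamed predicted genes. Members and lists were chosen with earlier results of these data known. The ratio and naming steps were run on simulated data. Those data had no spread between barcodes beyond counting error and strongly raised markers. The steps therefore remain untested for uneven barcodes and weak markers. Python 3.11.15, scipy 1.17.1, leidenalg 0.10.2 and scikit-learn 1.9.0 were used. Some genes that met these rules are not reported here.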

Additional observations from a re-analysis of the deposited data

Results flagged for a closer look

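A signal stood in barcodes that the comparisons did not use. With at least 1000 UMIs but under 500 genes, PG held 1893 barcodes, of which 1857 lay above the 10% limit, compared with 19 of 269 in skin. Their median mitochondrial share was 93.6% (5th to 95th percentile 56.7 to 97.0), with 1352 UMIs, 88 UMIs outside the mitochondrial genome and 77 genes, and they held 2373405 mitochondrial UMIs. mt-Co1 and mt-Co2 took 23.2% and 22.2% of these. Outside the mitochondrial genes Dbi was at 13199 CPM, Scd1 at 3620, Soat1 at 773, Awat2 at 550, Malat1 at 5643 and Neat1 at 1270. The free RNA of the library held Malat1 at 1437 and Neat1 at 86.8 CPM. What these barcodes are was not tested.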

How the results depend on the processing

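No paired analysis was possible because each tissue is 1 library, and no replicate could be left out for the same reason. Counting error is the only error known, and shallow barcodes limit low genes. As reported, 12.3% of PG barcodes lay above the limit, the log2 ratio to skin was 2.28, the SEB-like share was 24.6%, and the medians were 0.32 (SEB list), -0.11 (keratinocyte), 0.10 (stroma), 0.05 (immune) and -0.12 (late SEB list in SEB-like barcodes). The cause of the shifts below was not tested. With a limit of 5% the values were 29.1%, 1.22, 19.6%, SEB 0.83, stroma -0.44, immune -0.64 and late 1.57. With a limit of 20% they were 5.75%, 4.71, 28.6%, immune 0.73 and late -0.52, and Rgs5 was at -0.015. With at least 200 genes and 500 UMIs they were 21.4%, 1.52, 12.0%, stroma -0.28 and late 0.061. With at least 1000 genes and 2000 UMIs they were 7.41%, 3.83, 33.8%, keratinocyte -0.34, stroma 0.50 and immune -0.63, and Flt1 was at -0.16. With an upper limit on UMIs the SEB-like share was 28.2% and late 0.21, and at resolution 0.5, and likewise with a marker minimum of 3-fold (chosen after seeing the data), 20.7% and -0.31. With CPM over all UMIs the medians were SEB -0.0067, keratinocyte -0.44, stroma -0.23, immune -0.28 and late -0.42. With equal weight per barcode SEB was 0.70 and stroma -0.38. With at least 1000 UMIs outside the mitochondrial genes the share was 10.3%. Of 2178 values of 242 named genes under the alternatives, 231 changed sign, in 101 genes, 54 of them with a limit of 5% and 42 with CPM over all UMIs. Among genes past 2-fold, the Rgs5 and Flt1 values above were the ones that did. Of the 32 genes past 2-fold, 32 stayed past it with doublets removed and 19 with CPM over all UMIs.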

Other observations

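Single barcodes set the level of 2 genes above the limit, both named after their values were seen. Igkv8-27, an immunoglobulin light chain gene, had 361 UMIs, all in 1 barcode. Timp1, an inhibitor of matrix proteases, had 537 UMIs, 527 of them in 1 barcode, and its level of 406 CPM was 7.59 CPM without that barcode. The 4 hemoglobin genes of the erythrocyte list summed to 2.27 CPM above and 41.1 at or under the limit.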
